A study of Mus musculus with 16 samples.

Results

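Ursolic acid, a pentacyclic triterpene acid, was compared with control diet in the quadriceps muscle of aged mice. The comparison took 11 of the 16 arrays of the series, the 6 titled as mice on ursolic acid diet and the 5 titled as mice on control diet, and no measured value was used to choose them. The question put by the study was which muscle mRNAs differ when old mice eat the compound.

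All the mice were male C57BL/6, aged 22 months at the start of the diets and 24 months when the muscles were taken, so every group was aged. Controls ate standard chow, and the ursolic acid mice ate that chow with 0.27% (w/w) of the compound for 2 months, in cohorts matched for weight. Another group of 5 mice, which ate chow with 0.05% (w/w) tomatidine, a steroidal alkaloid, entered the fit to add to the estimate of the spread and is set beside ursolic acid at the end. Total RNA of 1 quadriceps sample per mouse was read on 1 Illumina Mouse Ref-8 BeadChip with 1 colour, and values are log2 signals.

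Skeletal muscle is built mainly of multinucleate fibres that differ in contractile proteins and in fuel use. Fast fibres rely more on glycogen and glycolysis, while slow fibres hold more mitochondria and burn more fat. Muscle mass follows the balance of protein synthesis, which depends on ribosomes, initiation factors and charged tRNAs, and of breakdown by the proteasome and autophagy. ATF4, a transcription factor induced by amino acid shortage and other stresses, drives genes for amino acid supply and restrains synthesis through targets that include Eif4ebp1, an inhibitor of cap-dependent translation.

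The arrays were alike, with correlations of 0.990 to 0.998 within groups and of 0.993 to 0.997 between control and ursolic acid mice. Muscle fibre genes dominated, and Acta1, skeletal muscle actin, read 15 to 15.19 on the 11 arrays. Signals under 8.5 were close to the lowest on the arrays, where changes can be compressed, and 76.85% of probes had means there. Control mice 1 and 5 stood apart from the other 9 mice on the leading principal component, at -9.15 and -8.77 against -3.07 to 6.22, and also had the lowest mean signal over a list of 16 slow-fibre contractile genes, 9.82 and 9.98 against 10.4 to 10.99. Results that follow this split are given with and without those 2 mice, and a call lost there can also follow from having fewer controls. A further fit, called the slow-fibre fit, adjusted for each mouse's mean over that list and is given for some of these results. The part that fibre composition itself plays in them was not tested directly. In whole muscle, fewer cells of a type and less RNA per cell cannot be told apart.

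With ursolic acid the named held rises were led by H19, Fndc5, Mgst1 and Acaa2 and the named held falls by Fbp2, Eif4ebp1, Tspan8 and Kcnab1, all by less than 0.60 on the log2 scale. At an unadjusted p of 0.025 or less (limma), 1362 of 25697 probes changed, which is 5.30%, and 663 of them were higher (2.58%) and 699 lower (2.72%). The median size of a passing change was 0.096 on the log2 scale. After Benjamini-Hochberg adjustment, 2 probes passed at 0.1 (0.00778%). Every ursolic acid mouse lay above every control mouse for 141 probes (0.549%) and below every control mouse for 138 (0.537%).

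A narrower set of probes is called held below. These passed the unadjusted threshold in the same direction in 25 fits, which include 16 that each leave out 1 mouse and 8 with another test, normalization, background correction or weighting. 461 probes held, 214 higher (0.833%) and 247 lower (0.961%), with a median change of 0.129 in size, or 1.09-fold. The groups did not overlap for 169 of them, 192 had means under 8.5, and 353 also passed without control mice 1 and 5. In the slow-fibre fit 459 of the held probes passed. Genes given below as not held passed the threshold over all mice and were picked after their values were seen. The plot of change against signal shows held probes at dim and at bright signals. Not every large change passed, and Hba-a1, a haemoglobin gene, did not pass with a change of 0.56.

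**Figure D1:**
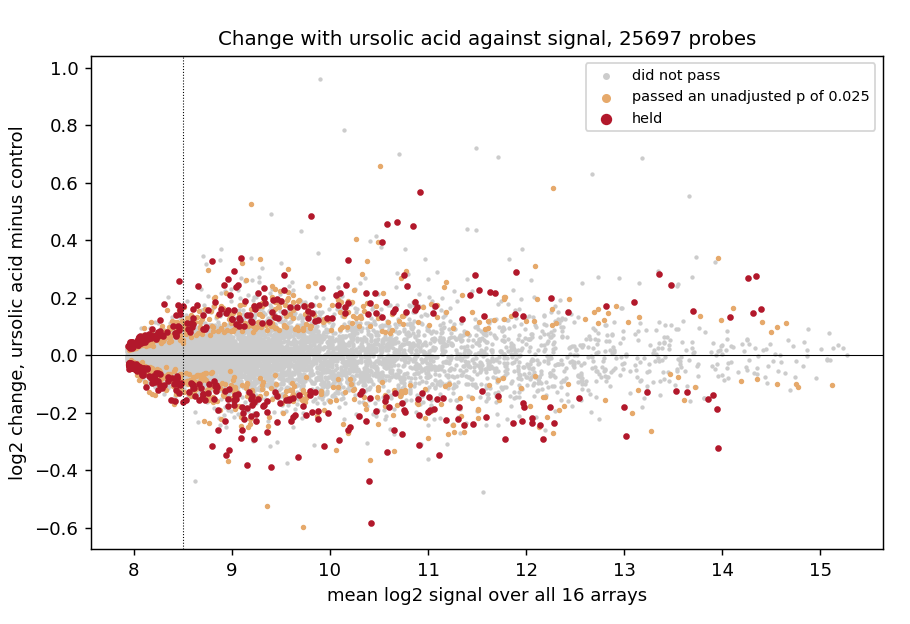
Log2 change with ursolic acid against control (y axis) by mean log2 signal over 16 arrays (x axis), 1 point per probe for 25697 probes. The 1362 passing probes include 461 that held, and the dotted line at 8.5 marks the signal under which 76.85% of probes lie.

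Both probes past the adjusted threshold were lower with ursolic acid. Bcap29, an endoplasmic reticulum membrane protein of the BAP family, read 10.7, 10.58, 10.59, 10.63 and 10.57 in control mice 1 to 5. In the 6 ursolic acid mice it had a lowest value of 10.35, a median of 10.41 and a highest of 10.48, so every ursolic acid mouse was below every control. It fell by 0.19 (SE 0.03, 95% interval -0.25 to -0.13, 0.874-fold, limma adjusted p = 0.0678). A dimmer probe of Bcap29 also fell and held.

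Rpl28, a protein of the large cytosolic ribosomal subunit, read 13.08, 13.11, 13.05, 13.18 and 13.05 in the controls, against 12.87 to 13 with a median of 12.91 under ursolic acid. The groups did not overlap. Rpl28 fell by 0.18 (SE 0.03, 95% interval -0.24 to -0.12, 0.883-fold, limma adjusted p = 0.0678). Over the other 24 fits the limma or t-test adjusted p ran from 0.0521 to 0.455 for Bcap29 and from 0.0124 to 0.455 for Rpl28. The number of probes past the adjusted threshold ran from 0 to 50 when 1 mouse was left out, and it was 50 without control mouse 5.

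With adjustment over only the probes whose mean was 8.5 or more, 17 passed at 0.1, and all 17 held. 9 of these 17 were lower, which besides Bcap29 and Rpl28 were the probes of Eif4ebp1, Fxyd1, Srp9 and Sel1l3, described below, and of Tsr3 (-0.27), a ribosomal RNA modifying enzyme, Dusp13 (-0.23), a dual specificity phosphatase, and Arpp19 (-0.21), an inhibitor of protein phosphatase 2A. The 8 higher ones were Ckmt2, Mgst1, Rcan2 and Fndc5, described below, and Trak2 (0.28), an adaptor for mitochondrial transport, Fitm2 (0.23), a lipid droplet protein, Rnf44 (0.22), a RING finger protein, and Timm21 (0.20), a part of the mitochondrial import machinery. The last 4 and Tsr3, Dusp13 and Arpp19 were picked out after their values were seen.

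Mgst1, a membrane-bound glutathione transferase, read 10.12, 10.56, 10.47, 10.24 and 10.44 in the controls, and 10.57, 10.89 and 11.02 as the lowest, median and highest ursolic acid values. Every ursolic acid mouse was above every control, the lowest by a narrow margin. Mgst1 rose by 0.46 (SE 0.10, 1.38-fold, limma adjusted p = 0.195), and its second probe also rose and held.

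Fndc5, the precursor of the myokine irisin, had 2 probes that both rose. On the one with the larger change the controls read 9.23, 9.69, 9.87, 9.39 and 9.39, against 9.77, 10 and 10.26 as the lowest, median and highest under ursolic acid. Control mouse 3 was within the ursolic acid range and the other controls were below it. That probe rose by 0.48 (SE 0.11, 1.4-fold, limma adjusted p = 0.195) and held, while the brighter probe rose by 0.40 (SE 0.12, limma adjusted p = 0.302) and did not hold. Without control mice 1 and 5 these changes were 0.35, which passed, and 0.24, which did not. In the slow-fibre fit they were 0.41 and 0.28, and both passed.

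Ckmt2, the creatine kinase of sarcomeric mitochondria, had 2 bright probes that rose by 0.27 each and held. The controls read 14, 14.21, 14.21, 13.96 and 14 on the probe with the smaller p, and the ursolic acid mice 14.28 to 14.4 with a median of 14.35, with no overlap (SE 0.04, 1.2-fold, limma adjusted p = 0.149). Control mice 2 and 3 were the highest of their group on it. On the other probe 4 of 6 ursolic acid mice were above the highest control (SE 0.07, limma adjusted p = 0.229).

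H19, a long noncoding RNA of an imprinted locus that is high in developing muscle, read 10.12, 10.55, 10.67, 10.39 and 10.45 in the controls and 10.78, 10.94 and 11.32 as the lowest, median and highest under ursolic acid. The groups did not overlap. It rose by 0.57 (SE 0.14, 95% interval 0.26 to 0.87, 1.48-fold, limma adjusted p = 0.249), the largest rise among the named probes that held.

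Further held rises were in Il15, a myokine, at 0.28 (SE 0.07) on 1 of its 3 probes, and in Bag3, a co-chaperone of chaperone-assisted autophagy at the Z disc, at 0.28 (SE 0.07). Bag3 read 13, 13.16, 13.27, 13.12 and 13.36 in the controls and 13.4 to 13.56 under ursolic acid, with no overlap. Pdlim5, a Z disc scaffold, rose by 0.29 (SE 0.07) without overlap on 1 of 4 probes. Rcan2, an inhibitor of calcineurin, rose by 0.33 (SE 0.07) on its dimmest probe, with 5 of 6 ursolic acid mice above the highest control. The brightest Rcan2 probe also rose by 0.33 without holding, and another, with a change of 0.16, did not pass. Ung, uracil-DNA glycosylase, rose by 0.29 (SE 0.07) without overlap on its brightest probe. A dim Ung probe rose by 0.06 and held, and its others, with changes of 0.01 and -0.02, did not pass. For the probe given first for each of these 5 genes the limma adjusted p lay between 0.195 and 0.259. Of 20 genes for myokines and secreted growth regulators 2 rose and 2 fell, against 2.81% and 2.86% of 16590 genes, each by its brightest probe. The list's median was 0.006, its changes ran from -0.6 to 0.4, and Il15 was the 1 that held. Without any 1 mouse 2 to 3 of the list rose and 0 to 2 fell.

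Chrna1, the acetylcholine receptor subunit that muscle raises when it loses its nerve, and Acss2, which makes acetyl-CoA from acetate, also held. Chrna1 read 8.7, 8.93, 8.96, 8.89 and 8.77 in the controls and 8.95, 9.2 and 9.35 as the lowest, median and highest under ursolic acid, a rise of 0.34 (SE 0.11, limma adjusted p = 0.361). A second Chrna1 probe of like signal had a change of 0.27 and did not pass. Of 17 junction and denervation genes 2 rose and 1 fell, against 2.81% and 2.86% of all genes, with a median of 0.005. Chrna1 was the 1 that held, and without any 1 mouse 2 to 3 rose and 0 to 2 fell. Acss2 read 9.78, 10.23, 10.2, 9.93 and 9.79 against 10.15, 10.34 and 10.39, a rise of 0.33 (SE 0.09, limma adjusted p = 0.263). In both genes control mice 1 and 5 were the lowest of the 11 mice. Without those controls the changes were 0.26 and 0.20 and neither passed. In the slow-fibre fit they were 0.36 and 0.23 and both passed.

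**Figure D2:**
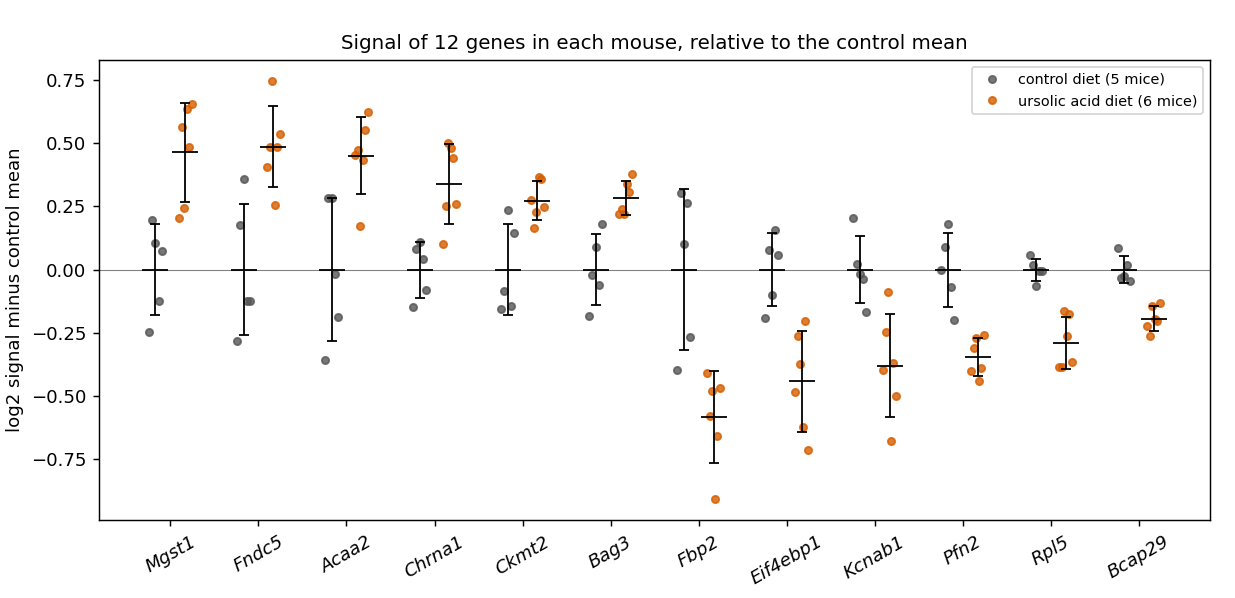
Log2 signal minus the control mean (y axis) for 12 genes, 1 held probe each, in 5 control mice (grey) and 6 ursolic acid mice (orange), with the mean and SD in black. Every ursolic acid mouse is below every control for Fbp2, Eif4ebp1, Pfn2, Rpl5 and Bcap29, and above every control for Mgst1 and Bag3.

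The largest fall among the held probes with a symbol was in Fbp2. Fbp2, the muscle fructose-1,6-bisphosphatase, read 10.33, 11.03, 10.83, 10.99 and 10.46 in control mice 1 to 5 and 9.82, 10.2 and 10.32 as the lowest, median and highest under ursolic acid. The groups came close but did not overlap, since control mouse 1 was only just above the highest ursolic acid mouse. Fbp2 fell by 0.58 (SE 0.15, 95% interval -0.90 to -0.27, 0.668-fold, limma adjusted p = 0.249). Without control mice 1 and 5 it fell by 0.80.

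Of 27 glycolysis, glycogen and glucose transport genes measured, 4 fell and 0 rose at the unadjusted limma threshold, against 2.86% lower and 2.81% higher of 16590 genes, each by its brightest probe. The list's median change was -0.022, against 0.00 over all genes, so most of its members moved little. Of the 16590 genes 12092 had means under 8.5, against 6 of this list, and shares over brighter genes alone were not computed. That limit applies to every list given here, above and below. All 4 that fell held, against 0.874% of genes held higher and 1.02% held lower. Gyg, glycogenin, which primes glycogen, read 10.35, 10.36, 10.36, 10.54 and 10.28 against 10.06 to 10.19, with no overlap, and fell by 0.25 (SE 0.06, limma adjusted p = 0.232). The dimmer Gyg probe had a change of -0.19 and did not pass. Slc2a3, a glucose transporter, fell by 0.23 (SE 0.06). Ppp1r3c, which targets a phosphatase to glycogen, read 14.22, 14.07, 13.97, 14.09 and 14.15 against 13.47, 13.78 and 14.02, and fell by 0.32 (SE 0.10, limma adjusted p = 0.344). Its change without control mice 1 and 5 was -0.27, which did not pass, and in the slow-fibre fit -0.31, which passed.

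Eif4ebp1, which binds eIF4E and blocks cap-dependent initiation, read 10.44, 10.71, 10.53, 10.79 and 10.69 in the controls and 9.92, 10.21 and 10.43 as the lowest, median and highest under ursolic acid. Every ursolic acid mouse was below every control, though control mouse 1 was only just above the highest. Eif4ebp1 fell by 0.44 (SE 0.09, 95% interval -0.62 to -0.25, 0.738-fold, limma adjusted p = 0.171), and without control mice 1 and 5 by 0.48. Of 41 initiation and elongation genes, 3 fell and 0 rose, against 2.86% and 2.81% of all genes, with a median of -0.025. Eif2s2, the beta subunit of eIF2, fell by 0.23 (SE 0.07) and held on its brighter probe, while the other, at -0.12, did not pass. Eif5 fell by 0.14 and did not hold.

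Of 59 cytosolic ribosomal protein genes, 8 fell and 0 rose, against 2.86% and 2.81% of all genes, and 6 of the 8 held. The median over the list was -0.023. Rpl5, a large subunit protein that also travels with 5S RNA, read 12.36, 12.32, 12.24, 12.3 and 12.3 in the controls and 11.92, 11.99 and 12.14 as the lowest, median and highest under ursolic acid. The controls lay close together and above every ursolic acid mouse. Rpl5 fell by 0.29 (SE 0.07, 0.817-fold, limma adjusted p = 0.236). Rps10 fell by 0.17 (SE 0.04) and Rpl22 by 0.16 (SE 0.04), each with some overlap, and Rpl37a and Rps15a fell by 0.24 and 0.10 and held. Rpl12 and Rpl29 fell by 0.21 and 0.17 and did not hold. The number lower was 8 to 10 when 1 mouse was left out and 9 without control mice 1 and 5. Ribosomal protein genes have many near-identical copies in the genome, so a probe may read more than 1 of them.

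Aminoacyl-tRNA synthetases load amino acids onto tRNAs. Of 22 measured, 2 fell and 0 rose, against 2.86% and 2.81% of all genes, with a median of -0.025. Nars, the asparagine enzyme, read 10.2, 9.94, 10.17, 10.1 and 10.17 against 9.8, 9.94 and 10, and fell by 0.20 (SE 0.05, limma adjusted p = 0.236), with control mouse 2 inside the ursolic acid range. Lars, the leucine enzyme, fell by 0.16 (SE 0.04, limma adjusted p = 0.195). The brighter probe of Mars1, the methionine enzyme, did not pass, with a change of -0.14 (95% interval -0.30 to 0.02), but it passed without control mouse 5, at -0.21, and without control mice 1 and 5, at -0.19. A dim probe of Mars1 fell by 0.10 (SE 0.03) without overlap and held.

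Of 33 genes that respond to ATF4 or amino acid supply, 1 rose and 2 fell, against 2.81% and 2.86% of all genes, with a median of -0.007. The rises numbered 0 when the mouse left out was control 1 or 4 or ursolic acid 4 or 6, and 2 without tomatidine mouse 1 or ursolic acid mouse 1. The falls numbered 1 when it was control 1, 3 or 4 or ursolic acid 2, 3, 4 or 6. Eif4ebp1, given above, was the member that held. Atf5, a related factor, rose by 0.25, and Ppp1r15a, which counters eIF2 phosphorylation, fell by 0.15, and neither held. Atf4 itself did not pass on either probe, with a change of -0.20 (95% interval -0.54 to 0.13) on the brighter and -0.07 (95% interval -0.21 to 0.07) on the other. Gadd45a, a stress gene tied to muscle atrophy, had changes of 0.70 (95% interval 0.06 to 1.34, limma adjusted p = 0.496) and 0.35 (95% interval -0.12 to 0.83, limma adjusted p = 0.699) and did not pass on either. On its brighter probe the controls read 10.36, 9.8, 9.95, 10.04 and 10.96 and the ursolic acid mice 10.29, 10.94 and 11.62 as the lowest, median and highest, so both groups were wide and overlapped. Control mouse 5 was the highest control. With control mice 1 and 5 left out, the brighter probe rose by 0.99 and passed, while the other had a change of 0.59 and did not. The brighter probe also passed without control mouse 5 (0.88), ursolic acid mouse 1 (0.83) or tomatidine mouse 1 (0.70). In the slow-fibre fit the 2 probes had changes of 0.98 and 0.56, and both passed.

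In the endoplasmic reticulum, 6 of 46 genes for protein entry, folding and quality control fell and 0 rose, with a median of -0.014. Over all genes 2.86% fell and 2.81% rose. Srp9, which belongs to the signal recognition particle, read 10.03, 9.84, 9.94, 10.03 and 9.94 in the controls and 9.72 to 9.79 with a median of 9.75 under ursolic acid. The ursolic acid mice lay in a narrow band below every control. Srp9 fell by 0.20 (SE 0.04, 0.872-fold, limma adjusted p = 0.158), while its dimmer probe, with a change of 0.02, did not pass. Ssr3, a subunit of the translocon-associated complex, fell by 0.24 (SE 0.07), and Bcap29, given above, was the other member that held. Srpr, Ssr4 and Derl2 fell by 0.21, 0.17 and 0.06 and did not hold. Without ursolic acid mouse 4 the number lower was 3, and without control mice 1 and 5 it was 4.

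Respiratory chain subunits carry electrons and make ATP in mitochondria. Of 34 complex I subunits 7 rose and 0 fell, against 2.81% and 2.86% of all genes. Of 41 subunits of complexes II to V 10 rose and 0 fell. Each list had a median of 0.045, and the other members did not pass. 5 of these 17 genes held. Atp5j, coupling factor 6 of ATP synthase, read 14.22, 14.23, 14.31, 14.19 and 14.16 in the controls and 14.34, 14.37 and 14.41 as the lowest, median and highest under ursolic acid. The groups did not overlap, with control mouse 3 the nearest. Atp5j rose by 0.15 (SE 0.03, 1.11-fold, limma adjusted p = 0.158), while its dimmer probes, with changes of 0.10 and 0.01, did not pass. Atp5g1, a subunit of the ATP synthase ring, rose by 0.16 (SE 0.04), Cox6a1, of cytochrome c oxidase, by 0.24 (SE 0.07) and Ndufs6, of complex I, by 0.13 (SE 0.03), all without overlap. Ndufa6, of complex I, rose by 0.15 (SE 0.04) with 1 ursolic acid mouse among the controls.

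These counts leaned on single mice. Without control mouse 1 the rises in complex I numbered 4 and those in complexes II to V numbered 5. Without control mice 1 and 5 they numbered 6 and 8, and the list medians were -0.012 and 0.034. Atp5j, Atp5g1, Cox6a1 and Ndufs6 passed without those controls, with changes of 0.12, 0.15, 0.22 and 0.12, and Ndufa6 did not. In the slow-fibre fit 6 genes rose and 2 fell in complex I, and 6 rose and 1 fell in complexes II to V. The list medians were then 0.009 and 0.031, and Ndufa6 passed at 0.16. The tricarboxylic acid cycle and pyruvate entry list, which feeds the chain, had 1 rise among 23 genes, in Suclg1 at 0.12, which did not hold. That is 4.35% of the list passing, against 5.67% of all genes in either direction.

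Mitochondrial ribosomal proteins, which translate the proteins encoded by mitochondrial DNA, changed in both directions. Of 75 measured 12 rose and 3 fell, against 2.81% and 2.86% of all genes, with a median of 0.02. Mrpl3 read 10.38, 10.38, 10.42, 10.51 and 10.53 in the controls and 10.57, 10.62 and 10.7 as the lowest, median and highest under ursolic acid, without overlap, and rose by 0.18 (SE 0.04, limma adjusted p = 0.195). Mrpl4 rose by 0.17 (SE 0.05) without overlap, Mrpl10 by 0.17 (SE 0.04) and Mrps31 by 0.15 (SE 0.03). The dimmer probes of Mrpl10 (0.08) and of Mrps31 (0.04, 0.08 and -0.01) did not pass. Mrpl42 and Mrpl28 rose by 0.17 and 0.14 and held. Mrpl23 and Mrps28 each fell by 0.15 (SE 0.03 and 0.04) and held, and Mrps28 did not overlap. Without control mouse 4 the number higher was 7. The number lower was 6 without control mouse 5, 5 without tomatidine mouse 4 and 5 without control mice 1 and 5. In the slow-fibre fit 9 genes of the list rose and 8 fell, with a median of 0.013.

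The promoters of the held mitochondrial genes are shown because many nuclear genes for mitochondrial proteins carry the element CCGGAAG, read by factors of the GABPA type, near their start. Of 19 held members of the mitochondrial lists 15 had a promoter in the RefSeq table for GRCm38.p6. At least 3 of these held that element on either strand in the 250 bases before the start. The search for it may not have covered all 15. The 3 found are printed on the gene's strand with the element in capitals and up to 40 bases on either side of it. The windows of Cox6a1 and Mrpl3 end at the last base before the start, and that of Atp5j ends short of it, with 54 bases between its element and the start.
Atp5j: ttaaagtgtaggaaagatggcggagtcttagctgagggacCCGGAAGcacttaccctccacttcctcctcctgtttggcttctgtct
Cox6a1: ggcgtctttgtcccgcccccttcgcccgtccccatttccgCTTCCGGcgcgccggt
Mrpl3: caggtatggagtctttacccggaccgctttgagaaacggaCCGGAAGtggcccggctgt
The windows are chr16:84834991-84835077 for Atp5j and chr5:115348959-115349014 for Cox6a1, both on the minus strand, and chr9:105053209-105053267 for Mrpl3 on the plus strand. In Cox6a1 the element is on the other strand and reads CTTCCGG. Of the array's genes that have a promoter listed, 11% held it, and of those with a mean signal of 8.5 or more 17.9%. Among held genes at 8.5 or more, 26.1% of 111 that rose and 11% of 127 that fell held it. The element TGATGNAA of the ATF4 type was in 4.5% and 2.36% of the same groups and in 2.71% of all genes at 8.5 or more. A match is a run of letters and shows no binding.

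Fatty acid uptake and oxidation genes had a median of 0.108, and 5 of 28 rose while 0 fell, against 2.81% and 2.86% of all genes. Acaa2, a mitochondrial thiolase of beta-oxidation, rose on 3 of its 4 probes and held on each of those. On the brightest the controls read 10.22, 10.86, 10.86, 10.56 and 10.39, against 10.75, 11.04 and 11.2 as the lowest, median and highest under ursolic acid. Control mice 1 and 5 were the lowest, and 1 ursolic acid mouse was below control mice 2 and 3. Acaa2 rose by 0.45 (SE 0.14, 1.37-fold, limma adjusted p = 0.333) there, and by 0.46 and 0.39 on the other probes. Etfa, which passes electrons from the acyl-CoA dehydrogenases, rose by 0.24 (SE 0.07) on its brightest probe. Its other probes, with changes of 0.10, 0.24 and 0.04, did not pass. Cpt2, Acads and Decr1 rose by 0.27, 0.18 and 0.18 and did not hold.

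Without control mice 1 and 5, 0 of the 28 fatty acid genes passed at the unadjusted limma threshold and the list median was -0.007. The change of Acaa2 on its brightest probe was then 0.27 and that of Etfa 0.18. In the slow-fibre fit 2 of the 28 genes rose and the list median was 0.015. Acaa2, on its brightest probe, and Etfa passed there at 0.32 and 0.19. The number of rises was 2 without control mouse 1, 2 without control mouse 5, 2 without ursolic acid mouse 6, and 3 without control mouse 4, ursolic acid mouse 1 or ursolic acid mouse 4. The list's mean signal per mouse followed the slow-fibre mean in the controls, with control mice 1 and 5 the lowest in both.

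**Figure D3:**
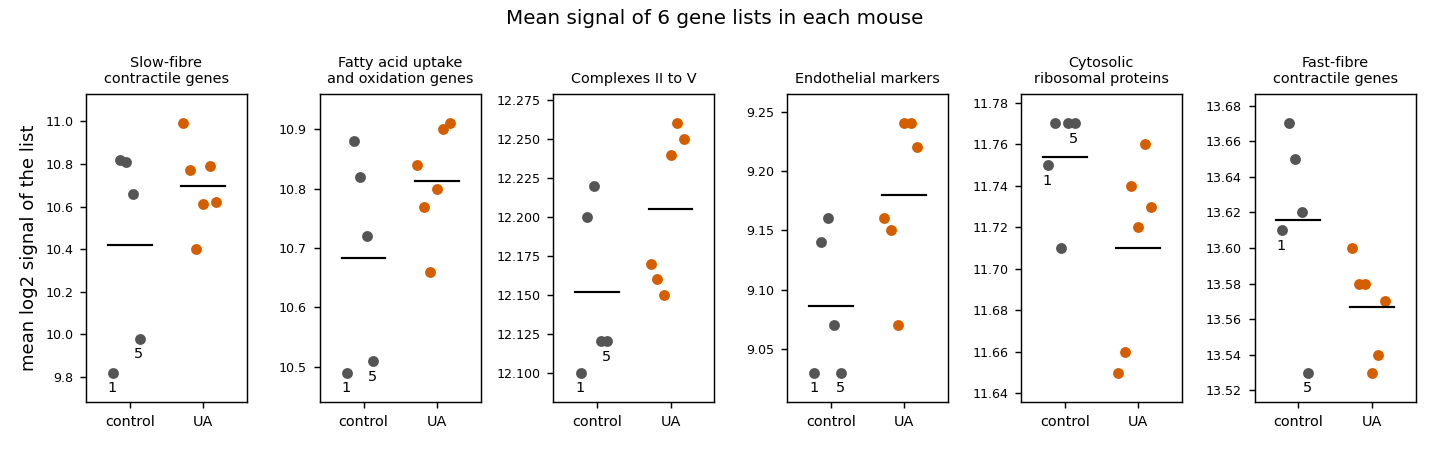
Mean log2 signal of 6 gene lists (y axes, each with its own range) in 5 control and 6 ursolic acid (UA) mice, with group means as bars. Control mice 1 and 5 are numbered, and they are the lowest of all 11 mice for the slow-fibre list (9.82 and 9.98) and for the fatty acid list (10.49 and 10.51).

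Contractile genes of slow fibres had a median change of 0.143 over 16 genes, and 1 rose, Atp2a2, the slow calcium pump, by 0.58. That is 6.25% of the list passing, against 5.67% of all genes in either direction. Atp2a2 did not hold. In the list 0 passed without control mouse 1, control mouse 5, ursolic acid mouse 1, ursolic acid mouse 2 or ursolic acid mouse 5. The median was -0.022 without control mice 1 and 5. Of 15 fast-fibre genes 4 fell and 0 rose, against 2.86% and 2.81% of all genes, with a median of -0.017. Mybpc2, fast myosin-binding protein C, read 14.01, 14.08, 13.95, 14.03 and 13.89 against 13.72, 13.87 and 13.95, and fell by 0.14 (SE 0.04, limma adjusted p = 0.328), with control mouse 5 the lowest control. Mylk2, the skeletal myosin light chain kinase, fell by 0.11 (SE 0.02) at a dim signal without overlap. Both held. Myh4, fast myosin IIb, and Tnni2, fast troponin I, fell by 0.26 and 0.11 and did not hold. Both held genes passed without control mice 1 and 5.

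Excitation and calcium release genes, which link the nerve's signal to contraction, had a median of -0.097 over 16 genes. Of these 3 fell while 0 rose, against 2.86% and 2.81% of all genes. Kcnab1, which assembles with potassium channels as a beta subunit, fell on 2 of 3 probes. On the brighter of these the controls read 9.66, 9.48, 9.44, 9.42 and 9.29 and the ursolic acid mice 8.78, 9.08 and 9.37 as the lowest, median and highest, with 5 of 6 below every control. It fell by 0.38 (SE 0.10, 0.767-fold, limma adjusted p = 0.259) there and by 0.33 (SE 0.08) without overlap on the other. Cacnb1, a subunit of the voltage sensor of excitation-contraction coupling, fell by 0.17 (SE 0.06) and held, and Cacng1, another, fell by 0.27 and did not hold. Pdlim3, a Z disc protein, read 14.17, 14.04, 14.05, 14.1 and 14.05 against 13.8, 13.89 and 14 and fell by 0.19 (SE 0.04) without overlap. Its dimmer probe had a change of -0.15 and did not pass. Pdlim3 was the 1 member of 16 Z disc, M band and titin genes that held, of 3 that fell and 1 that rose. The 3 falls in that list were 1 without control mouse 4 or ursolic acid mouse 4.

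The other large held falls belonged to no single list. Pfn2, a profilin that binds actin monomers, read 11.35, 11.44, 11.53, 11.28 and 11.15 against 10.91, 11 and 11.09, a fall by 0.35 (SE 0.10) without overlap, and a brighter probe also fell without holding. Otub2, a deubiquitinase, fell by 0.35 (SE 0.10) and passed on all 3 of its probes. Fxyd1, phospholemman, a regulator of the sodium pump, read 8.9, 8.98, 9.13, 9.16 and 8.85 against 8.66, 8.69 and 8.71. The ursolic acid mice lay close together below every control, and Fxyd1 fell by 0.31 (SE 0.06, limma adjusted p = 0.171) on 1 of 2 probes. Ndufaf5, a complex I assembly factor, fell by 0.34 (SE 0.09) without overlap, on 1 of 2 probes, against the direction of the complex I subunits. Tspan8, a tetraspanin, fell by 0.39 (SE 0.11) and Sel1l3 by 0.35 (SE 0.08), both without overlap. Rtn4, a reticulon that shapes the endoplasmic reticulum, fell by 0.31 (SE 0.09) with overlap on 1 of 4 probes. On the held probe, all of these passed without control mice 1 and 5.

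Of 29 atrophy, FoxO and autophagy genes 1 fell and 0 rose, or 3.45% against 5.67% of all genes in either direction. The fall was in Trim63, the ligase MuRF1, by 0.27, and it did not hold. With control mice 1 and 5 left out, 2 of the list rose and 1 fell, and without any 1 mouse 0 to 1 rose and 0 to 2 fell. There were 0 falls when the mouse left out was control 2 or 4 or ursolic acid 3 or 6, and 2 without control mouse 3 or ursolic acid mouse 2. Of 36 proteasome subunits 4 fell and 1 rose, or 13.9%, with a median of -0.025. Psmd8, of the regulatory particle, read 12.24, 12.33, 12.14, 12.27 and 12.2 against 11.88, 11.99 and 12.16, and fell by 0.22 (SE 0.06, limma adjusted p = 0.318). It was the 1 proteasome gene that held, and the falls numbered 2 without control mouse 3 or without ursolic acid mouse 2. Of 30 heat shock genes 2 rose and 0 fell, or 6.67% against 5.67% of all genes in either direction. They were Bag3, given above, and Hspa2, a chaperone of the HSP70 family, by 0.23 (SE 0.07), and both held. The dimmer Hspa2 probe had a change of 0.04 and did not pass. Among 34 glutathione and oxidant defence genes Mgst1 and Prdx3, a mitochondrial peroxiredoxin (0.20, not held), rose. Gstm1, a cytosolic glutathione transferase with close paralogs that the probe may also read, fell by 0.14 (SE 0.04) and held.

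At the unadjusted limma threshold 0 of 22 insulin, IGF1 and Akt signalling genes, 0 of 17 satellite cell and regeneration genes and 0 of 18 clock genes passed in either direction, against 5.67% of all genes. Each of these lists had 1 passing gene in some of the fits without 1 mouse. Tfrc, the transferrin receptor that brings iron into cells, did not pass on either probe. On the one with the smaller p the controls read 10.46, 10.47, 10.47, 10.34 and 10.34 and the ursolic acid mice 10.49, 10.56 and 10.79 as the lowest, median and highest. Every ursolic acid mouse was above every control, by a small step, and the change was 0.18 (95% interval 0.02 to 0.33, limma adjusted p = 0.473). This probe did pass the unadjusted threshold in the fit of the 11 arrays alone and without ursolic acid mouse 6 or tomatidine mouse 1 or 5.

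**Figure D4:**
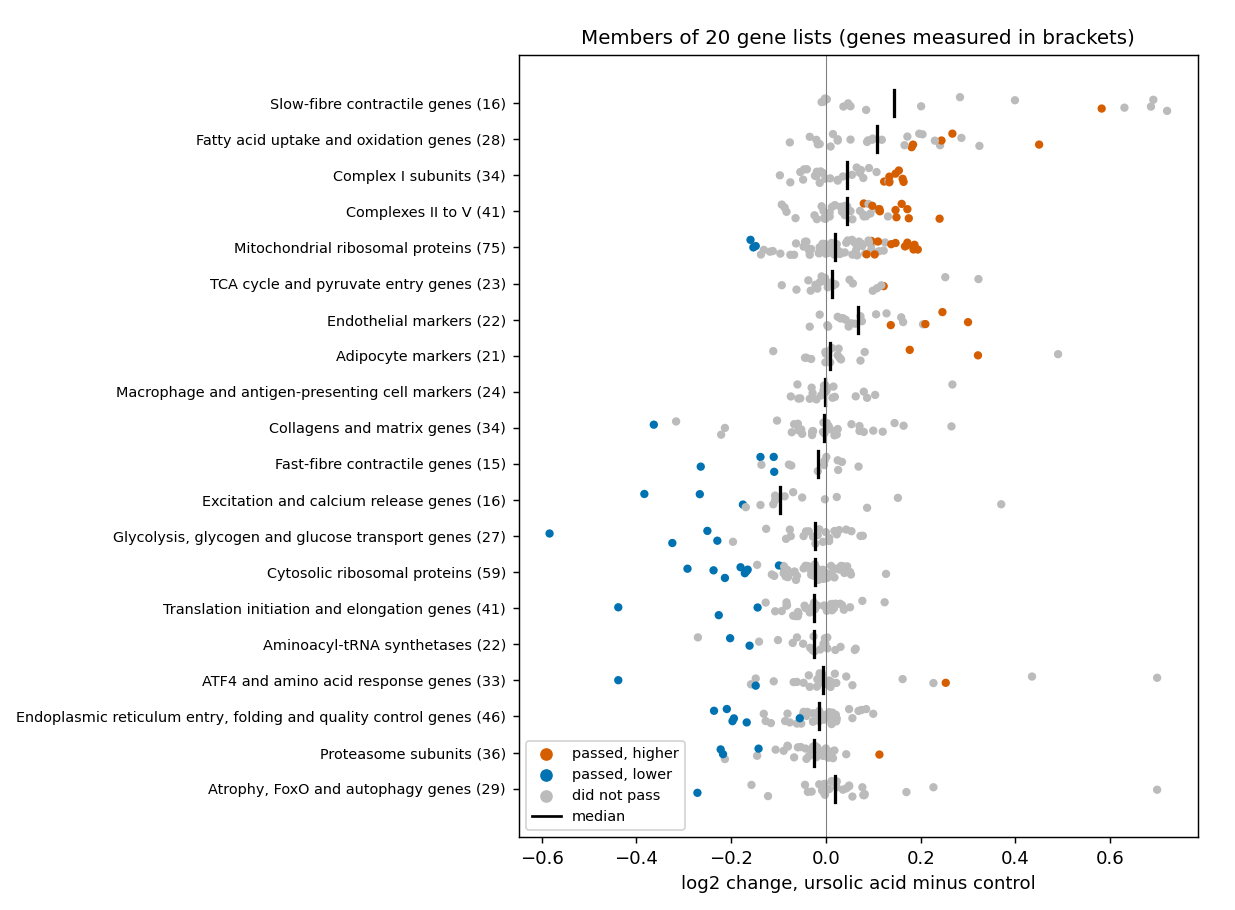
Log2 change with ursolic acid against control (x axis) for each measured member of 20 gene lists (y axis, number measured in brackets), with passing members in colour and the list median as a black bar. Coloured points are all higher in the respiratory chain, fatty acid, slow-fibre, tricarboxylic acid cycle, endothelial and adipocyte lists. They are all lower in the fast-fibre, excitation, glycolysis, cytosolic ribosomal, initiation, synthetase, endoplasmic reticulum, collagen and atrophy lists. Most members of every list are grey, and the medians run from -0.097 to 0.143.

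Markers of other cells in muscle were measured beside these lists. Of 22 endothelial genes 4 rose and 0 fell, against 2.81% and 2.86% of all genes, and the median was 0.068. Their mean signal was 9.03 to 9.16 in the controls and 9.07 to 9.24 under ursolic acid. Eng, an endothelial co-receptor for TGF-beta ligands, read 8.85, 8.94, 8.97, 8.86 and 8.71 against 8.94, 9.13 and 9.26, rose by 0.25 (SE 0.08, limma adjusted p = 0.333) and held. Without control mice 1 and 5, 0 endothelial genes passed. In the slow-fibre fit 1 rose, Eng by 0.19. The rises numbered 2 without control mouse 1, 1 without control mouse 5 and 2 without ursolic acid mouse 4. Of 21 adipocyte genes 2 rose and 0 fell, among them Cidea, a lipid droplet protein, by 0.18 (SE 0.05) at a dim signal. None rose without control mice 1 and 5, 1 rose when the mouse left out was control 1 or 5 or ursolic acid 5 or 6, and 4 rose without ursolic acid mouse 3. Cidea held but did not pass without control mice 1 and 5, and it passed in the slow-fibre fit at 0.14. None of 24 macrophage, 17 blood and acute phase or 10 Schwann cell genes passed in either direction in the same limma fit, where 5.67% of all genes passed, and 2 blood and acute phase genes rose without control mouse 2 and 1 without tomatidine mouse 5. The liver genes were at the floor in both groups. The part that other cell types play in the results above was not tested.

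Tomatidine was set beside ursolic acid only to show where ursolic acid differs. Both were compared with the same 5 controls, their doses were not matched, and a difference between them is not a comparison at equal dose. Ursolic acid and tomatidine differed at 756 of 25697 probes at the unadjusted threshold (2.94%), and at 3 after adjustment (0.0117%). Of the named probes 9, in 8 genes, differed between the compounds at an unadjusted p of 0.025 or less, with limma adjusted p of 0.764 to 0.845. For 3 of these the call stood when any 1 mouse was left out.

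Rpl28 was lower with ursolic acid than with tomatidine by a difference of -0.10 (95% interval -0.16 to -0.05), from changes against control of -0.18 and -0.08. Tfrc was also lower with ursolic acid, by -0.27 (95% interval -0.43 to -0.11) and -0.24 (95% interval -0.39 to -0.09) on its 2 probes, from changes of 0.12 and 0.18 with ursolic acid and of 0.39 and 0.42 with tomatidine. These 3 probes are the ones whose call stood. The call for Eif4ebp1, with changes of -0.44 and -0.20, ended in 5 of the fits without 1 mouse, and that for Rpl5, with -0.29 and -0.10, in 5 as well. Ppp1r3c, with -0.32 and -0.07, lost its call in most of them.

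Gstm1, with -0.14 and -0.03, Mrpl4, with 0.17 and 0.04, and Rps10, with -0.17 and -0.06, also differed between the compounds. In the fits without 1 mouse, Gstm1 and Mrpl4 lost the call in some and Rps10 in most. For the remaining named probes no difference between the compounds passed. A second, dimmer probe of Mrpl3, not among the named probes, did differ, by 0.11 (95% interval 0.03 to 0.18), from changes of 0.15 and 0.05. Bcap29 had changes of -0.19 with ursolic acid and -0.22 with tomatidine, with a 95% interval of the difference of -0.03 to 0.09. Mgst1 changed by 0.46 and 0.45, with an interval of -0.21 to 0.23, and Ckmt2, on the probe with the smaller p, by 0.27 and 0.28, with an interval of -0.10 to 0.09. H19 changed by 0.57 and 0.87, with an interval of -0.61 to 0.00. A difference that did not pass is not evidence that the compounds act alike, and these intervals bound it.

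**Figure D5:**
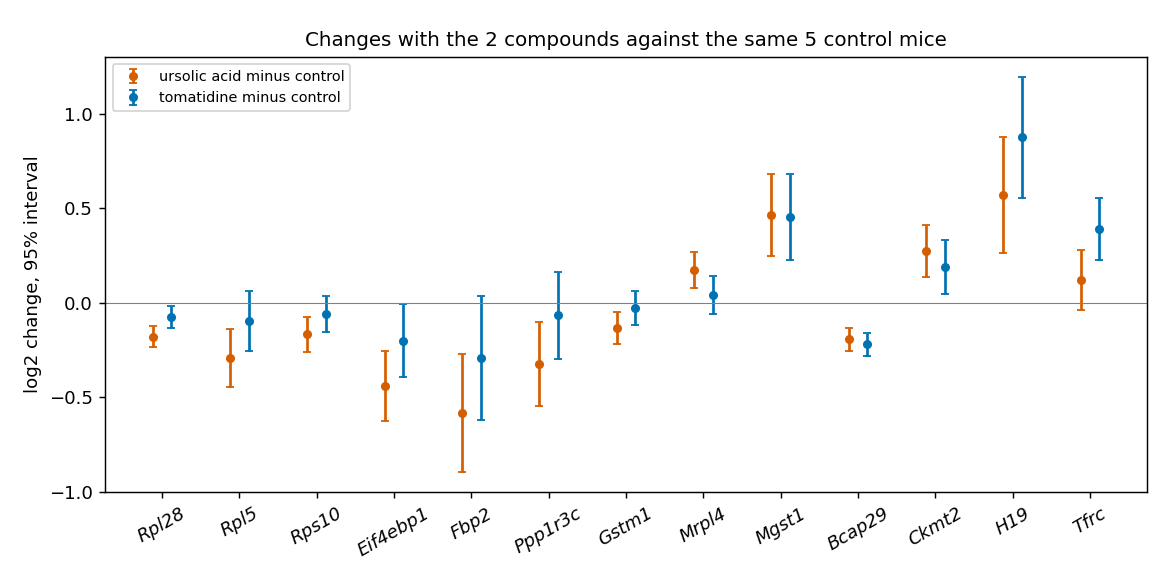
Log2 change against the same 5 control mice (y axis), with its 95% interval, for 13 genes under ursolic acid (orange) and tomatidine (blue). The compounds lie apart for Rpl28 (-0.18 and -0.08) and Tfrc (0.12 and 0.39) and close together for Mgst1 (0.46 and 0.45) and Bcap29 (-0.19 and -0.22).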

How the data were processed

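The authors extracted the array signals with BeadStudio from iScan readings and deposited log2 values that were already normalized between the arrays. The normalization method, background correction, slides and scan dates were not given in the sources used here. The deposited log2 values were used unchanged, with no filter on dim probes. Of 25697 probes, 23978 had 1 gene symbol from the platform annotation, updated by gene identifier. The probe of H19 and 1 probe of Atf4 were named through the study's tables.

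Tests used limma (version 3.58.1, R version 4.3.3) through lmFit and eBayes, 1 mean per group over 16 arrays with 13 residual degrees of freedom, 2-sided, with Benjamini-Hochberg adjustment over all probes. The thresholds of the study's methods were used, an unadjusted p of 0.025 and an adjusted p of 0.1. The fit was tested on simulated data. Array titles gave the groups, and mouse numbers are of different animals and pair none. In gene lists the brightest probe stood for its gene.

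Alternatives were the 11 arrays alone, an intensity trend, array weights, the methods' t-test with equal and unequal variances, median centring, quantile normalization, normexp, a minimum mean of 8.5, a replicate block, and leaving out each mouse. A fit without control mice 1 and 5 and one with the mean of the slow-fibre list as a covariate were added after the data were seen. Named are the probes past the adjusted threshold, the 12 largest rises and falls among held probes with a platform symbol (which H19 lacks), up to 4 held members per list and direction, and genes the study names on these arrays. The members and lists were chosen with earlier results of these data known. Intervals are at 95% and rest on the number of arrays.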

Additional observations from a re-analysis of the deposited data

Results flagged for a closer look

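Among 142 groups of mice checked over the named probes, 4 held a mouse far from the rest of its group by Dixon's criterion, which chance alone would meet in about 1 of 20 groups. Acss2 read 10.15 in ursolic acid mouse 3 against 10.33 to 10.39 in the other 5. Mrps28 read 10.78 in ursolic acid mouse 4 against 10.86 to 10.90. Sel1l3 read 9.67 in control mouse 5 against 9.90 to 9.93 in the other controls, and 9.23 in ursolic acid mouse 4 against 9.49 to 9.61.

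The effect of ursolic acid differed from that of tomatidine at an unadjusted p of 0.025 or less (limma) for 9 named probes. The difference, ursolic acid minus tomatidine, was -0.24 for Eif4ebp1, -0.11 for Gstm1, 0.13 for Mrpl4, -0.26 for Ppp1r3c, -0.10 for Rpl28, -0.20 for Rpl5, -0.11 for Rps10, and -0.27 and -0.24 for the 2 probes of Tfrc. The doses of the compounds differ, and none of these passed after adjustment.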

How the results depend on the processing

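Probes under 8.5 lie near the floor of the arrays, so their changes have little room. At the unadjusted threshold 302 probes were higher and 311 lower with a minimum mean of 8.5, and from 514 to 702 and from 587 to 862 without 1 mouse. Past the adjusted threshold there were 0 probes on the 11 arrays alone, by the methods' t-test, with unequal variances and with normexp, 1 with an intensity trend, 17 at a minimum mean of 8.5, 8 without control mice 1 and 5, 33 with the slow-fibre covariate and 0 to 50 without 1 mouse. Probes that differed between the compounds numbered 623 to 1079 without 1 mouse. Groups did not overlap for 75 probes higher and 61 lower at a minimum mean of 8.5, for 640 and 605 without control mice 1 and 5, and for 196 to 331 and 189 to 337 without 1 mouse, where fewer mice leave less to overlap. Mouse numbers do not pair the mice, and same-numbered mice correlated at -0.24 to -0.05 in their deviations. A replicate block gave 559 probes higher, 604 lower and 5 past the adjusted threshold, ended the calls of Etfa, Cidea, Ppp1r3c and 2 of the 3 Acaa2 probes, and let the brighter Gadd45a probe pass. The dimmest Il15 probe turned from -0.01 to 0.01 without control mouse 4, the cause of which was not tested. The brighter Fndc5 probe lost its call with unequal variances.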
